A study of Mus musculus with 9 samples.

Results

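Perilipins are the coat proteins of lipid droplets, the organelles in which cells store triglyceride, and the triglyceride lipases release the fatty acids stored there. The 10 genes described were Plin2, Plin3, Plin4, Plin5, Pnpla2, Pnpla7, Abhd5, Lipe, Mgll and Dgat1, taken by gene symbol from the 54513 genes of the deposited table. All 10 were listed once and all 10 passed the filter on low counts, as did 18690 genes of the table. They were chosen with earlier results of these data known, so their differences between groups are given as descriptions, and an adjusted p only places a gene among all genes tested.

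The study sequenced poly(A)-captured RNA from mouse brain tissue that the labels call hippocampal, with 9 libraries from 3 groups of 3 mice. Mice of all 3 groups ate a high-fat diet for 12 weeks, and the labels used here state no strain, sex or age. In the Trp group the diet carried added tryptophan at 0.5% by weight. Mice of the IPA group were gavaged each day with indole-3-propionic acid (IPA), a bacterial product of tryptophan, in saline at 100 mg per kg body weight. The HFD group had the high-fat diet alone, with no mention of a saline gavage. Libraries are called by group and replicate, as Trp 1 or HFD 3. The column codes of the table are tied to the samples by the labels but are not explained there, so that these columns hold the mice of the diet study rests on that pairing alone.

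Storage and release of triglyceride run through a short chain of proteins. The diacylglycerol acyltransferase Dgat1 makes triglyceride, perilipins coat the droplet and control access to it, and the lipase Pnpla2 (ATGL), with its co-activator Abhd5 (CGI-58), removes the first fatty acid. Lipe (hormone-sensitive lipase) and Mgll (monoacylglycerol lipase) remove the others, and in brain Mgll also degrades the endocannabinoid 2-arachidonoylglycerol. Pnpla7 belongs to the same patatin-like family as Pnpla2 but is known mainly as a lysophospholipase.

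Levels are given as CPM, the deposited counts scaled to a common library size, and as the authors' FPKM where genes are compared per length. The libraries held 40621084 to 50938746 counts, and 23940 to 24947 genes had at least 1 count. At this depth 3 counts, the limit that a count of 0 allows, correspond to 0.0584 to 0.0751 CPM. Markers of hippocampal neurons summed to 568 to 696 CPM in Trp, 618 to 652 in IPA and 628 to 779 in HFD libraries. Of these 16 markers 14 were lower in Trp and 13 in IPA than in HFD, with 0 passing edgeR. Their median log2 fold changes were -0.31 and -0.52. Markers of striatal neurons, which the label does not name, summed to 2269 to 3264 CPM in Trp, 3185 to 4179 in IPA and 1075 to 3248 in HFD libraries. All 16 striatal markers were higher in both groups against HFD, beside 49.5% (Trp) and 48.9% (IPA) of all genes tested. Their median log2 fold changes were 0.42 for Trp and 0.73 for IPA, and 0 passed edgeR. Blood cell markers summed to 638 to 724 CPM in Trp, 632 to 757 in IPA and 988, 1140 and 2608 in HFD 1 to 3, so that every HFD library lay above every other one. All 8 blood markers tested were lower in both groups against HFD, with median log2 fold changes of -1.74 for Trp and -1.87 for IPA and 0 passing edgeR. HFD 3 had the highest blood sum and the lowest striatal sum.

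Among the coat proteins, Plin4 differed most between the groups. Plin4 coats droplets through a long run of repeats that fold on the lipid surface, and is best known from adipose tissue and muscle. It had 54.8, 55.5 and 18.0 CPM in Trp 1 to 3 (2812, 2319 and 892 counts). It had 26.9, 22.5 and 14.5 CPM in IPA 1 to 3 (1075, 912 and 613 counts), and 0.728, 0.888 and 2.64 CPM in HFD 1 to 3 (34, 44 and 111 counts). Every Trp and IPA library lay above every HFD library, while Trp 3 lay within the range of the IPA libraries. Means were 42.8 ± 21.5 CPM in Trp, 21.3 ± 6.29 in IPA and 1.42 ± 1.06 in HFD (SD, n = 3 each).

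Fitted to counts, Plin4 differed by 4.94 on the log2 scale in Trp against HFD (SE 0.70, 95% interval 3.26 to 6.62), or 30.6-fold. With edgeR's quasi-likelihood test and Benjamini-Hochberg adjustment over all genes tested, its adjusted p was 0.0638, which misses the threshold of 0.05. Over 21 alternative settings this adjusted p ran between 6.08e-11 and 0.251, and in 8 of them Plin4 passed. It passed without HFD 3 (adjusted p = 0.0438, log2 fold change 5.72), without Trp 3 (adjusted p = 0.0268, 5.30) and by DESeq2 (adjusted p = 6.08e-11, 4.92). For IPA against HFD the log2 fold change was 3.93 (SE 0.68, 95% interval 2.29 to 5.57), or 15.3-fold, with an edgeR adjusted p of 0.204 that ran between 1.07e-05 and 0.554 over the alternatives. In the authors' deposited table Plin4 was called up in both comparisons, at log2 fold changes of 4.92 (q = 5.9e-08) for Trp, where 0.424% of the genes they tested were called, and 3.92 (q = 7.1e-07) for IPA, where 0.302% were. Both comparisons use the same HFD libraries.

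The sequence before the Plin4 start site is shown with those of Plin5, its neighbour, and of Pnpla2, the lipase whose values lay closest to those of Plin4 over the libraries. Each run is the 250 bases before a RefSeq start site on the gene's strand, from build GRCm38.p6, and capitals mark matches to the motifs named here. The windows are chr17:56109783-56110032 (minus strand) for Plin4, chr17:56117549-56117798 (minus strand) for the upstream of 2 Plin5 start sites and chr7:141454938-141455187 (plus strand) for Pnpla2.
Plin4: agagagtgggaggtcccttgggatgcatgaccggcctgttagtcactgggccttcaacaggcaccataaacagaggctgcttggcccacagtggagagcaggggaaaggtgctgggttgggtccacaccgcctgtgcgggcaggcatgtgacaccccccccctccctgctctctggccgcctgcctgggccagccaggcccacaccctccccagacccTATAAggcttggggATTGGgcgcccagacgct
Plin5: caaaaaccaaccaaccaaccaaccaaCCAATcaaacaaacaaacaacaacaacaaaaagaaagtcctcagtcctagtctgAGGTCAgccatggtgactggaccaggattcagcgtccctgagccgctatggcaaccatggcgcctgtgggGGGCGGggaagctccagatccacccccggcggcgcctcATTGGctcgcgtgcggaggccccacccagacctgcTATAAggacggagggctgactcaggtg
Pnpla2: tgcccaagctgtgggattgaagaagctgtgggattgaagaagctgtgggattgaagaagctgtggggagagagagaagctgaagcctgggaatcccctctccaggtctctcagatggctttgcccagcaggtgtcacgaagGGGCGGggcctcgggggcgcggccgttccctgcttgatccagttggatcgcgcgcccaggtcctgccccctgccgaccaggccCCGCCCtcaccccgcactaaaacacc
Plin4 holds a TATA core (TATAA) at bases -32 to -28 from the start site and a CCAAT box read on the other strand at -18 to -14. Plin5 holds a TATA core at -27 to -23, 2 CCAAT boxes, a GC box (GGGCGG) and a nuclear receptor half-site (AGGTCA) at -170 to -165. Pnpla2 holds 2 GC boxes, at -109 to -104 and on the other strand at -26 to -21, and no TATA core. Motifs were searched on both strands in 250-base windows, which 9 of the 10 genes have in the RefSeq table. Dgat1 has none there. Plin5, Lipe and Mgll have 2 windows each and count as matched if either matches. Counts of genes are therefore not directly comparable with the shares of windows given beside them. TATAA was in 22.8% of all 32851 windows and in those of 2 of the 9 genes, Plin4 and Plin5. CCAAT was in 33.8% of all windows and in those of Plin2, Plin3, Plin4 and Plin5, and GGGCGG in 32.7% and in those of 6 of the 9 genes. The half-site AGGTCA was in 14.0% of all windows and in those of Plin2, Plin5 and Abhd5. The full palindrome of the glucocorticoid response element (0.387% of windows), which contains the core ACANNNTGT, and the PPAR direct repeat (0.0335%), 2 copies of AGGTCA 1 base apart, matched in none of the 9 genes. That core (5.84%) matched in Lipe, the FOXO motif GTAAACA (3.17%) in Lipe and Mgll, and the E-box CACGTG (6.02%) in Pnpla7, Lipe and Mgll.

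Plin4, Plin5 and Plin3 lie on chromosome 17, where the table places Plin4 at chr17:56407591-56416803, Plin5 at chr17:56418601-56424596 and Plin3 at chr17:56584476-56599873, all on the minus strand. Plin4 and Plin5 are 1797 bases apart. The submitters' processing notes name mm10, but none of the 10 genes starts where the GRCm38 annotation has it, although all 10 have the same chromosome and length, so the build of these positions is not settled. Plin5, the perilipin of oxidative tissues such as heart, had 1.29, 0.814 and 0.544 CPM in Trp 1 to 3, 0.676, 0.592 and 0.733 in IPA 1 to 3, against 0.749, 0.545 and 0.594 in HFD 1 to 3. The groups overlapped, and its log2 fold changes were 0.49 (SE 0.35, edgeR adjusted p = 0.658) for Trp and 0.08 (adjusted p = 0.957) for IPA against HFD. Each of these values rests on 24 to 66 counts. Lrg1, a secreted glycoprotein gene on the far side of Plin5, had log2 fold changes of -0.41 for Trp and -0.32 for IPA against HFD (edgeR adjusted p = 0.673 and 0.748). Plin4 shares 17 exon bases with Hdgfl2 on the opposite strand, which had 46.6 to 58.7 CPM over the 9 libraries and a log2 fold change of 0.05 for Trp against HFD.

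Plin2 and Plin3, the perilipins found in most cell types, did not separate the groups. Plin2, which is tied closely to stored lipid, had 5.42, 5.48 and 4.66 CPM in Trp 1 to 3, 5.08, 5.52 and 4.56 in IPA 1 to 3, against 4.95, 5.49 and 5.94 in HFD 1 to 3. Its log2 fold change was -0.07 (95% interval -0.40 to 0.25) for Trp and -0.11 for IPA against HFD (edgeR adjusted p = 0.907 and 0.835). Plin3, which moves between cytosol and droplets, had 20.8, 17.5 and 14.4 CPM in Trp 1 to 3, 23.7, 18.9 and 15.3 in IPA 1 to 3, against 11.6, 11.9 and 21.4 in HFD 1 to 3. HFD 3 alone among the HFD libraries overlapped the other groups. The log2 fold change of Plin3 was 0.24 for Trp and 0.37 for IPA against HFD (edgeR adjusted p = 0.801 and 0.651). Without both HFD 3 and Trp 3, an alternative chosen after seeing the data, these became 0.71 and 0.72 (adjusted p = 0.0394 and 0.0497).

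**Figure D1:**
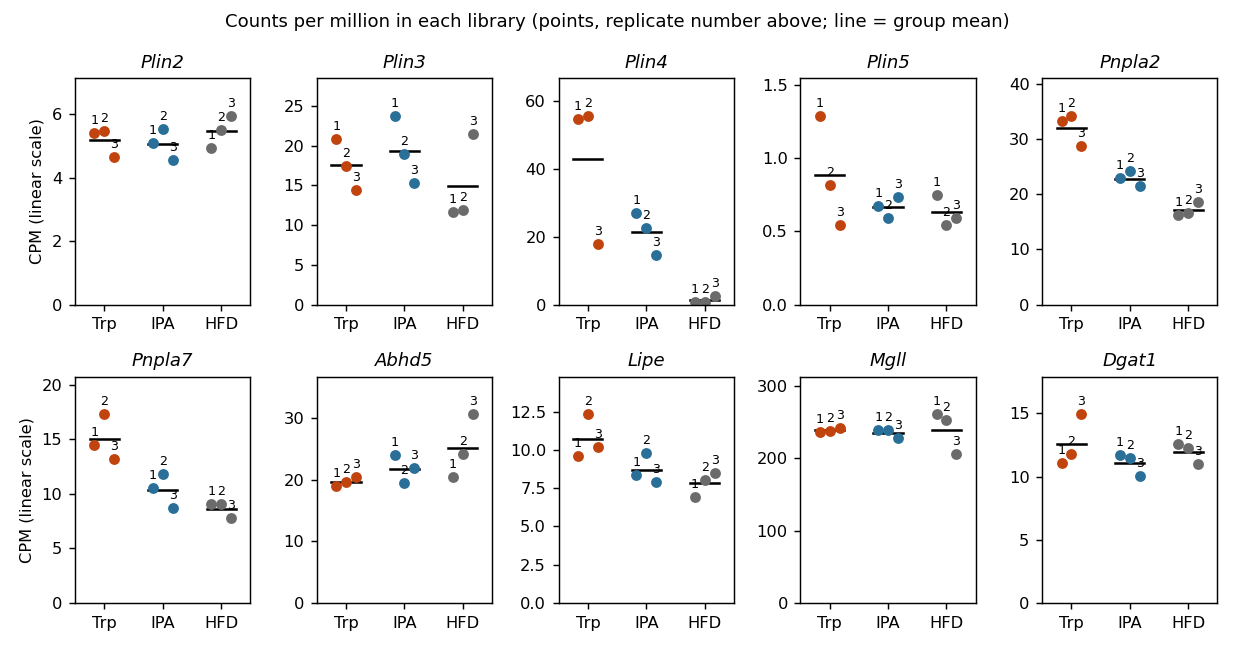
Levels in CPM (scaled counts, linear axes from 0, scaled per gene) of the 10 genes in each library of the Trp, IPA and HFD groups. Points are libraries with their replicate number above, and lines are means of 3. For Plin4 and Pnpla2 all Trp and IPA points lie above the HFD points, and for Pnpla7 and Lipe all Trp points do.

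Per length, Plin4 made up 48.2%, 51.6% and 29.1% of the summed FPKM of Plin2 to Plin5 in Trp 1 to 3, 30.6%, 29.2% and 24.5% in IPA 1 to 3, against 1.81%, 2.04% and 4.24% in HFD 1 to 3. Plin3 held the largest share in every HFD and IPA library and in Trp 3. The summed FPKM of the 4 perilipins was 16.2, 16.2 and 9.33 in Trp 1 to 3, 12.0, 11.0 and 8.20 in IPA 1 to 3, against 5.64, 6.10 and 8.53 in HFD 1 to 3. HFD 3 overlapped IPA 3 in this sum. The sum without Plin4 was 6.61 to 8.40 in Trp, 6.19 to 8.30 in IPA and 5.54 to 8.17 in HFD libraries, and these ranges overlap.

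**Figure D2:**
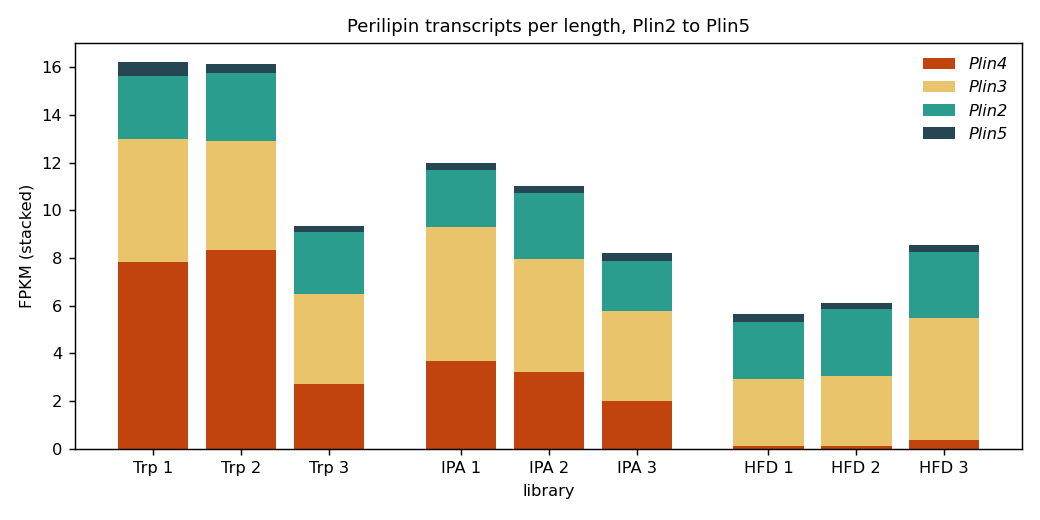
FPKM of Plin4, Plin3, Plin2 and Plin5, stacked from 0, in each of the 9 libraries (Trp, IPA and HFD, replicates 1 to 3). The Plin4 segment reaches 8.34 FPKM in Trp 2 and is 0.102 to 0.362 FPKM in HFD libraries, while the other segments overlap between groups.

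Among the lipases, Pnpla2 and Pnpla7 rose in Trp against HFD. Pnpla2 had 33.3, 34.2 and 28.7 CPM in Trp 1 to 3, 22.9, 24.2 and 21.4 in IPA 1 to 3, against 16.3, 16.7 and 18.7 in HFD 1 to 3. No group overlapped another, and IPA libraries stood between Trp and HFD libraries. Means were 32.1 ± 2.92 CPM in Trp, 22.8 ± 1.36 in IPA and 17.2 ± 1.28 in HFD (SD, n = 3 each). The log2 fold change of Pnpla2 was 0.90 for Trp against HFD (SE 0.10, 95% interval 0.68 to 1.12), or 1.86-fold, with an edgeR adjusted p of 0.0051 that stayed between 4.23e-11 and 0.0432 over all 21 alternatives. It was 0.41 for IPA against HFD (95% interval 0.18 to 0.63, adjusted p = 0.25) and 0.49 for Trp against IPA (95% interval 0.27 to 0.71, adjusted p = 0.542).

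Pnpla7 had 14.5, 17.3 and 13.2 CPM in Trp 1 to 3, 10.5, 11.9 and 8.75 in IPA 1 to 3, against 9.08, 9.06 and 7.79 in HFD 1 to 3. All Trp libraries lay above all IPA and HFD libraries, and IPA overlapped HFD. Its log2 fold change for Trp against HFD was 0.79 (SE 0.14, 95% interval 0.48 to 1.11), or 1.73-fold, with an edgeR adjusted p of 0.0415. This call ended without Trp 1 (adjusted p = 0.109), Trp 2 (0.258), IPA 1 (0.0774), IPA 2 (0.0661), IPA 3 (0.0508), HFD 1 (0.124) or HFD 2 (0.103), in a fit of the 6 libraries compared (0.102) and on FPKM with limma (0.171). Pnpla7 passed in 9 of 21 alternatives, with adjusted p between 0.000253 and 0.38. In FPKM Pnpla7 stood at 3.19, 4.32 and 2.92 in Trp 1 to 3, 2.63, 2.87 and 2.10 in IPA 1 to 3, against 2.56, 1.93 and 2.21 in HFD 1 to 3. In the authors' deposited table the q for Trp against HFD was 8.08e-09 for Pnpla2 and 0.000354 for Pnpla7, and neither was called. Both changed less than the 2.0-fold that all their calls exceed, a limit read from the calls themselves.

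Abhd5 did not pass in any of the 3 comparisons. It had 18.9, 19.6 and 20.4 CPM in Trp 1 to 3, 23.9, 19.5 and 21.9 in IPA 1 to 3, against 20.4, 24.2 and 30.6 in HFD 1 to 3, with log2 fold changes of -0.35 (95% interval -0.65 to -0.05, edgeR adjusted p = 0.353) for Trp and -0.20 (adjusted p = 0.627) for IPA against HFD. Per length, the ratio of Pnpla2 to Abhd5 FPKM was 2.43, 2.08 and 1.65 in Trp 1 to 3, 1.13, 1.45 and 1.14 in IPA 1 to 3, against 0.942, 0.817 and 0.736 in HFD 1 to 3. No group overlapped another in this ratio, nor in Pnpla2 FPKM alone. With the strand setting unknown, reads of overlapping genes on opposite strands cannot be told apart. Abhd5 shares 950 exon bases with A730085K08Rik (at most 0.888 CPM), Lipe 918 with 4732471J01Rik (1.26 to 2.42 CPM) and Mgll 167 with Gm26588 (1.90 to 2.83 CPM). The ATGL inhibitors did not separate the groups, with log2 fold changes for Trp against HFD of -0.03 for G0s2 (edgeR adjusted p = 0.983) and 0.11 for Hilpda (adjusted p = 0.869).

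Lipe, Mgll and Dgat1 completed the chain. Lipe had 9.64, 12.3 and 10.2 CPM in Trp 1 to 3, 8.38, 9.81 and 7.92 in IPA 1 to 3, against 6.96, 8.07 and 8.50 in HFD 1 to 3. The Trp libraries lay above the HFD libraries, and the IPA libraries overlapped both. The log2 fold change of 0.45 for Trp against HFD (95% interval 0.14 to 0.76, edgeR adjusted p = 0.262) did not pass in any of the 21 alternatives. Mgll was the most abundant of the 10 genes per length, at 46.8 to 61.0 FPKM, and had 236, 239 and 242 CPM in Trp, 240, 239 and 228 in IPA and 261, 253 and 206 in HFD libraries. Its log2 fold change was -0.01 for Trp and -0.03 for IPA against HFD (edgeR adjusted p = 0.99 and 0.946). Dgat1 had 11.0 to 14.9 CPM in Trp, 10.02 to 11.7 in IPA and 11.0 to 12.6 in HFD libraries, with log2 fold changes of 0.08 and -0.11 (edgeR adjusted p = 0.891 and 0.811). The ratio of Mgll to Pnpla2 FPKM was 4.21 to 5.78 in Trp, 6.76 to 7.23 in IPA and 7.53 to 11.0 in HFD libraries, with no overlap between the groups. Pnpla2 FPKM alone did not overlap between the groups either, while Mgll FPKM did.

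**Figure D3:**
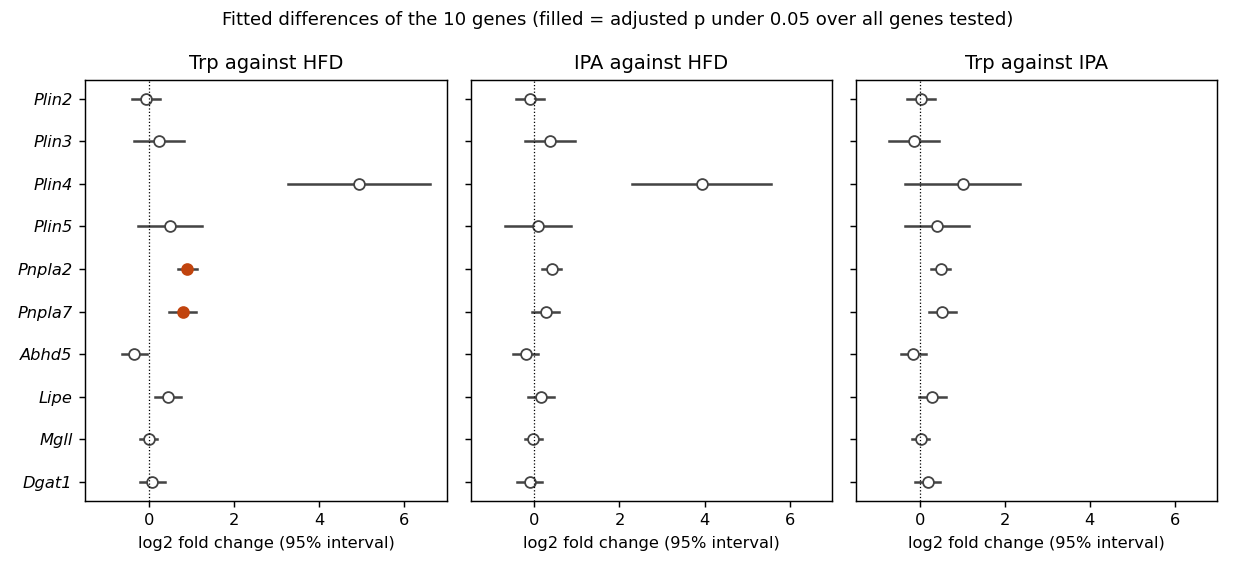
Fitted log2 fold changes of the 10 genes (points) with 95% intervals (lines) in 3 panels, Trp against HFD, IPA against HFD, Trp against IPA. Filled points, Pnpla2 and Pnpla7 in the first panel, had an edgeR adjusted p under 0.05 over all genes tested. Plin4 lies far to the right in the panels against HFD, at 4.94 and 3.93, with the widest intervals.

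Counted over the 10 genes, 2 passed in Trp against HFD, both higher, where 0.342% of all genes tested passed and 0.214% passed as higher. There 5 had an unadjusted p under 0.05 (11.3% of all genes), with Plin4, Pnpla2, Pnpla7 and Lipe higher and Abhd5 lower. DESeq2 passed 3, Plin4, Pnpla2 and Pnpla7 (1.49%). In IPA against HFD 0 of 10 passed with edgeR, where 0.00535% of all genes did, 2 of the 10 had an unadjusted p under 0.05 (10.4% of all genes), and DESeq2 passed 1, Plin4 (0.756% of all genes with an adjusted p). Between Trp and IPA 0 of 10 passed with edgeR, where 0.0% of all genes did, 2 had an unadjusted p under 0.05 (4.49% of all genes), and DESeq2 passed 1, Pnpla2 (0.0652%). In CPM, 4 of the 10 (Plin4, Pnpla2, Pnpla7 and Lipe) were higher in every Trp than in every HFD library, against 8.06% of all genes. The genes higher in every IPA than in every HFD library were 2 (Plin4 and Pnpla2), against 7.19% of all genes. Those higher in every Trp than in every IPA library were 2 (Pnpla2 and Pnpla7), against 5.61%. The median log2 fold change of the 10 was 0.34, 0.12 and 0.24 in these 3 comparisons, beside -0.00, -0.01 and 0.01 for all genes. These counts restate what the genes were chosen on. With 3 libraries against 3, an exact permutation test of a single value cannot give a p below 0.1.

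Within the groups, several of the genes ordered the libraries alike. Plin2, Plin3, Plin4 and Pnpla2 were each lowest in Trp 3 and in IPA 3 of their groups and highest in HFD 3 of its group, an order that 6.57% of all genes tested (1228) also showed. Over the 9 libraries the log2 CPM of Plin4 and Pnpla2 had a Pearson correlation of 0.92, and of deviations from the group means 0.94. That placed Pnpla2 at rank 36 of 12099 genes by likeness to Plin4. For deviations, Plin4 stood at 0.91 with Plin3 and 0.86 with Plin2, but at 0.21 with Pnpla7. These points share their library and its depth, so the values describe these libraries only.

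**Figure D4:**
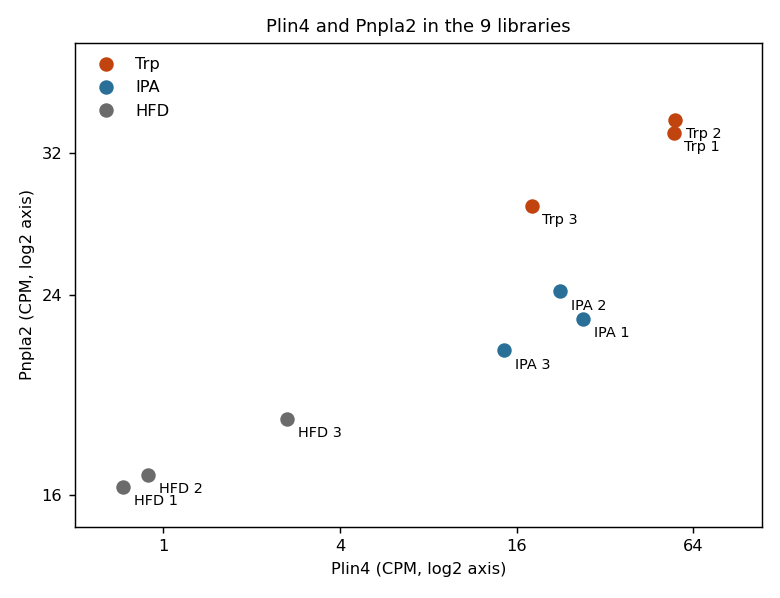
Plin4 against Pnpla2 in CPM, both on log2 axes, in the 9 libraries, coloured by group and labelled with group and replicate. On the Pnpla2 axis Trp libraries lie highest, IPA libraries below them and HFD libraries lowest. On the Plin4 axis Trp 3 lies among the IPA libraries, and HFD libraries lie to the left of all others.

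The genes whose log2 CPM followed Plin4 most closely over the 9 libraries were Aass (0.99), which starts lysine breakdown, Tppp3 (0.99), a tubulin-binding protein, Smim3 (0.99), Crot (0.97), a peroxisomal carnitine acyltransferase, Tekt4 (0.97), a protein of cilia, the Wnt receptor Fzd2 (0.96), the arrestin-domain gene Arrdc2 (0.96) and Mfsd2a (0.96), a lysophospholipid transporter of brain endothelium. Aass had 6.20, 6.80 and 4.72 CPM in Trp 1 to 3, 5.53, 5.47 and 4.63 in IPA 1 to 3, against 2.21, 2.70 and 3.42 in HFD 1 to 3. Crot, which handles fatty acids shortened in peroxisomes, had 43.1, 43.7 and 37.0 CPM in Trp 1 to 3, 40.7, 36.8 and 38.3 in IPA 1 to 3, against 26.7, 27.9 and 34.2 in HFD 1 to 3. In all 8 genes every Trp and IPA library lay above every HFD library, and likeness to Plin4 selects for this. Of the 8, all but Crot and Arrdc2 passed in Trp against HFD with edgeR, as Tekt4 at 2.24 on the log2 scale (adjusted p = 0.00568) and Mfsd2a at 1.05 (adjusted p = 0.00568), and none passed in IPA against HFD.

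Among other genes of the pathway, none passed with edgeR in 4 of the lists drawn up for them. Of 16 tested genes for other droplet proteins and droplet formation, 10 were higher and 6 lower in Trp than in HFD. Their median log2 fold change was 0.02, and 0 passed with edgeR. The smallest p among them belonged to Acsl3, an acyl-CoA synthetase of forming droplets, at 0.27 (edgeR adjusted p = 0.401), and Cidea, a droplet fusion protein, at -0.79 (adjusted p = 0.408). Without HFD 3 the count that passed was 1, Acsl3. Of 19 other lipases and regulators, 9 were higher and 10 lower, with a median of -0.01 and 0 passing, among them Lipc, hepatic lipase, at -1.14 (adjusted p = 0.498) from under 1 CPM in every library. Of 22 genes of triglyceride synthesis, 13 were higher and 9 lower, with a median of 0.03 and 0 passing. They included Gpd1, which makes glycerol phosphate, at 0.34 (adjusted p = 0.204), the phosphatidate phosphatase Lpin1 at 0.31 (adjusted p = 0.431) and Dgat2 at 0.01 (adjusted p = 0.993). Of 21 genes of lipolytic signalling, 7 were higher and 14 lower, with a median of -0.04 and 0 passing. That list mixes genes that promote lipolysis with genes that restrain it, so its counts give no direction of signalling. For IPA against HFD 0 genes of these 4 lists passed edgeR, and the medians were 0.02, -0.01, -0.02 and -0.06. DESeq2 also passed 0 genes of these 4 lists in both comparisons.

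Genes of fatty acid oxidation and PPAR targets, the programme that lipolysis by Pnpla2 is known to feed, showed 23 of 37 higher and 14 lower in Trp than in HFD. The median of their log2 fold changes was 0.06, and 0 passed with edgeR. Ucp2, a mitochondrial carrier, was nearest, with 40.1, 39.1 and 29.2 CPM in Trp 1 to 3, 26.1, 30.8 and 25.9 in IPA 1 to 3, against 19.2, 17.7 and 25.8 in HFD 1 to 3. Its log2 fold change for Trp against HFD was 0.79 (edgeR adjusted p = 0.0664). Angptl4, a secreted lipase inhibitor and PPAR target, stood at 0.76 (edgeR adjusted p = 0.309) and Pdk4 at 0.55 (adjusted p = 0.68). Among the 14 lower genes, Fabp7 stood at -1.09 (edgeR adjusted p = 0.27), Bdh1 at -0.29 (adjusted p = 0.233) and Vldlr at -0.29 (adjusted p = 0.213). Their unadjusted p were smaller than those of Angptl4 and Pdk4. DESeq2 passed 2 of the list, Ucp2 among them, where it passed 1.49% of all genes with an adjusted p. Without both HFD 3 and Trp 3 edgeR passed 7 of the list and 775 of all 18969 genes tested. For IPA against HFD 21 were higher and 16 lower, the median was 0.03 and 0 passed with edgeR or DESeq2. Fabp7 stood there at -1.12 (edgeR adjusted p = 0.345), Bdh1 at -0.26 (adjusted p = 0.349) and Angptl4 at -0.09 (adjusted p = 0.935).

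Glucocorticoids are hormones that raise Pnpla2 in adipose tissue. Of 25 genes listed as induced by glucocorticoids, 19 were higher in Trp than in HFD, beside 49.5% of all genes tested. Their median log2 fold change was 0.49 beside -0.00 for all genes. The 25 include Nr3c1, the gene of the glucocorticoid receptor itself, which stood at -0.09. The 4 that passed with edgeR all rose, namely Hif3a (1.77, adjusted p = 0.012), Sult1a1 (1.61, adjusted p = 0.0225), Mertk (0.87, adjusted p = 0.00568) and Mt1 (0.52, adjusted p = 0.0415). Of all genes tested 0.342% passed there. The count of the list was 1 without Trp 1, Trp 2 or HFD 2, 2 without IPA 1, IPA 2 or HFD 1, 8 without HFD 3, 13 without both HFD 3 and Trp 3 and 0 in a fit of the 6 libraries compared. Fkbp5, a classical member, had 86.8, 82.6 and 42.3 CPM in Trp 1 to 3, 54.7, 63.8 and 45.9 in IPA 1 to 3, against 32.1, 32.3 and 34.9 in HFD 1 to 3, with log2 fold changes of 1.09 (edgeR adjusted p = 0.164) and 0.73 (adjusted p = 0.393) for Trp and IPA against HFD. As for Plin4, Trp 3 had the lowest value of the Trp group. Zbtb16 stood at 0.75 and 0.74 (adjusted p = 0.467 and 0.5). The 6 genes lower in Trp than in HFD included Lcn2, Dusp1 and Per1, which were lower in IPA too. Lcn2 stood at -1.22 and -1.60, Dusp1 at -0.42 and -0.51 and Per1 at -0.33 and -0.18 for Trp and IPA, none of which passed edgeR. For IPA against HFD 21 of the 25 were higher, the median was 0.35, and 0 passed with edgeR against 3 with DESeq2. Of all genes tested 48.9% were higher there, and DESeq2 passed 0.756% of the genes with an adjusted p. Arrdc2, 1 of the 8 genes most like Plin4, is on this list. This list was drawn up with earlier results known and is no independent evidence of its direction.

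**Figure D5:**
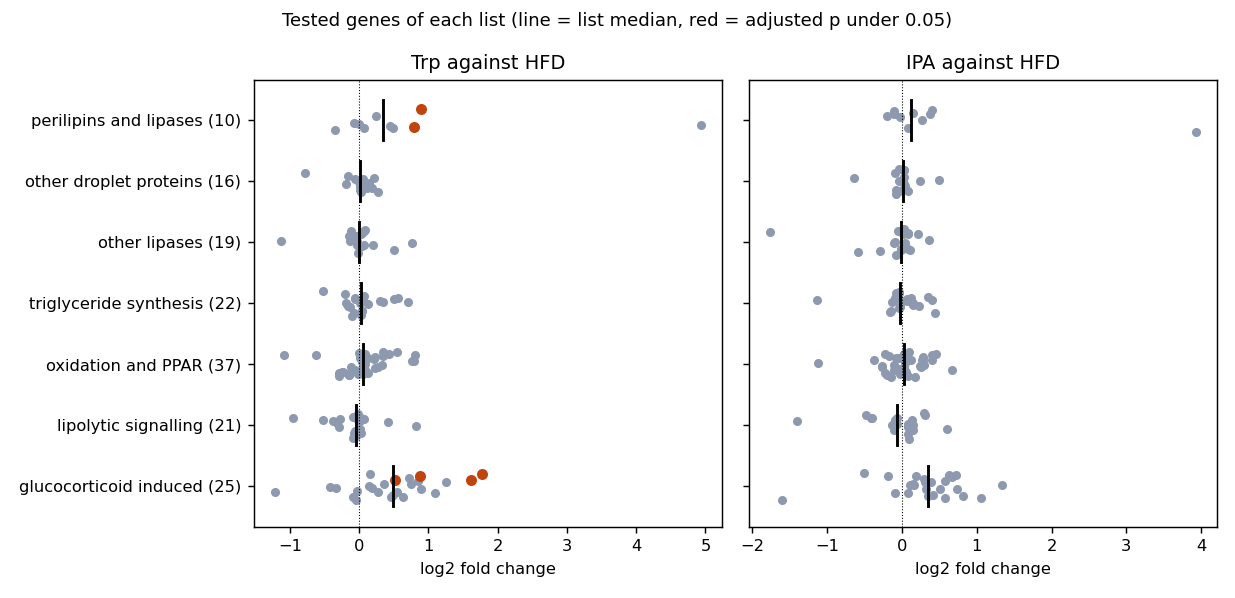
Fitted log2 fold changes of the 10 genes and of the tested genes of 6 lists (number tested in brackets), for Trp against HFD and IPA against HFD. Points are genes, red where the edgeR adjusted p was under 0.05, and lines are medians. The medians of 5 lists lie between -0.06 and 0.06, and that of glucocorticoid-induced genes at 0.49 for Trp and 0.35 for IPA.

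In bulk tissue, fewer cells of a type and less RNA per cell cannot be told apart. Adipocytes are the cells richest in several of these proteins. Of 18 adipocyte markers, 7 stayed under 10 counts in every library, among them Adipoq (at most 6 counts) and Cidec (at most 3), and Plin1, the adipocyte perilipin, had at most 10. Others were well counted, as Gpd1 (4076 to 6773 counts) and Acvr1c (789 to 1478). The summed adipocyte list, which includes Lipe itself, was 167 to 179 CPM in Trp, 152 to 172 in IPA and 133 to 153 in HFD libraries, with no overlap between Trp and HFD. Most of this sum was Gpd1, with 132, 137 and 128 CPM in Trp 1 to 3, against 114, 104 and 96.9 in HFD 1 to 3. The separation of the sum therefore describes mainly that gene. Of its 10 tested genes 6 were higher and 4 lower in Trp than in HFD, and 0 passed edgeR. Microglial markers summed to 496 to 647 CPM in Trp, 368 to 387 in IPA and 339 to 379 in HFD libraries. Of those 18, 17 were higher in Trp than in HFD and 5 passed, beside 49.5% of all genes tested that were higher and 0.342% that passed. Trp 3, with the lowest Plin4 of its group, had the highest sum. Choroid plexus markers summed to 2074, 906 and 226 CPM in Trp 1 to 3, 621, 1721 and 1302 in IPA 1 to 3, against 402, 324 and 1143 in HFD 1 to 3. All 15 were higher in both groups against HFD with 0 passing edgeR, none of the 15 was at 0 throughout, and the sum was lowest in Trp 3, where Plin4 was 18.0 CPM. Other libraries were ordered otherwise. Within IPA the sum was lowest in IPA 1, where Plin4 was highest of its group at 26.9 CPM. HFD 3 had a higher sum than Trp 2, with Plin4 at 2.64 CPM against 55.5 CPM. Ependymal markers, which include Tekt4, summed to 32.0 to 58.4 CPM in Trp, 39.7 to 59.6 in IPA and 32.6 to 40.9 in HFD. Of those 13, 9 were higher in Trp and 12 in IPA than in HFD, and Tekt4 alone passed edgeR, in Trp. Endothelial markers, which include Mfsd2a, summed to 449 to 496 CPM in Trp, 427 to 430 in IPA and 429 to 516 in HFD. Of those 16, 11 were lower in Trp and 13 in IPA than in HFD, and Mfsd2a alone passed edgeR, as higher in Trp. Astrocyte markers summed to 4627 to 4932 CPM in Trp, 4438 to 5108 in IPA and 4662 to 5074 in HFD, ranges that overlap. Oligodendrocyte markers summed to 7970 to 9486 CPM in Trp, 8809 to 10470 in IPA and 9240 to 15881 in HFD, and mural cell markers to 148 to 196 CPM in Trp, 135 to 156 in IPA and 172 to 226 in HFD. Of 14 oligodendrocyte markers 12 were lower in Trp and 11 in IPA than in HFD. Of 12 mural markers 10 were lower in Trp and 11 in IPA. The part of adipocytes, microglia, choroid plexus, striatal tissue and blood in the differences of Plin4, Pnpla2 and Pnpla7 was not tested.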

How the data were processed

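Each gene has counts and FPKM for 9 libraries in 1 table. Per the file headers, the authors deposited whole-number counts, unscaled between libraries, and FPKM, scaled by gene length and by library. Results of the authors' own comparisons of Trp and IPA with HFD (log2 fold change, p-value, q-value) are also deposited and are used only where named. Per the labels' protocols, RNA was captured on oligo(dT) beads and copied with random hexamers. No strand marking is mentioned. StringTie 2.1.3b and mm10 are named in the submitters' processing notes. Which aligner, annotation release, strand setting and test the authors used is not given in the sources. All columns were mapped to samples through names in the labels.

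The fit to the counts used edgeR 4.0.16 in R 4.3.3 (filterByExpr with minimum count 10, TMM, robust quasi-likelihood fit of all 9 libraries with 1 mean per group, two-sided, Benjamini-Hochberg adjusted over 18690 genes, threshold 0.05). The procedure was tested on simulated data. CPM use TMM-adjusted library sizes, and log2 CPM a prior count of 2. Alternatives were DESeq2 1.42.0, RLE and upper quartile scaling, other filters, limma 3.58.1 on log2(FPKM + pseudocount) with pseudocounts of 0.5, 0.1 and 1, only the libraries compared, a replicate block, leaving out each library, and leaving out both HFD 3 and Trp 3 (added after seeing the data). Replicates are separate mice per the labels.

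The 10 genes, the 6 pathway lists, the 11 marker lists and the rule for naming were chosen with earlier results of these data known. By that rule the text names the 10 genes, per list those that passed or otherwise up to 2 with the smallest p, a few fixed genes of lipolysis and glucocorticoid response, and the 8 genes most like Plin4 with a mean FPKM of at least 1, leaving out predicted genes. A gene that the rule would name is not reported here. Promoter windows come from RefSeq (GRCm38.p6), and exon overlaps from GENCODE M21. Figures were drawn with matplotlib 3.10.9.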

Additional observations from a re-analysis of the deposited data

How the results depend on the processing

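Under all 21 alternatives Plin4, Pnpla2, Pnpla7, Abhd5 and Lipe kept their direction in all 3 comparisons. With edgeR 64, 1 and 0 genes passed for Trp and then IPA against HFD, and for Trp against IPA (in this order throughout), of the 10 genes 2, 0 and 0. DESeq2 passed 288, 160 and 15 genes, and 3, 1 and 1 of the 10. With no filter on low counts 97, 6 and 3 genes passed. limma on FPKM without a filter passed 18 genes in Trp against HFD and 1 in Trp against IPA, where limma with a filter passed 2 at each pseudocount and a mean FPKM of at least 1 left 1. With only the 6 libraries compared 8 and 2 genes passed against HFD, and 1 of the 10 in Trp against HFD. Without both HFD 3 and Trp 3, 775, 247 and 2 genes passed, and 4 of the 10 (Pnpla2, Plin4, Plin3, Pnpla7) in Trp and 3 (Pnpla2, Plin4, Plin3) in IPA against HFD. Leaving out 1 library gave 13 to 323 genes in Trp against HFD, the highest without HFD 3, 0 to 52 in IPA against HFD and 0 to 1 in Trp against IPA. Of the 10 genes it gave 1 to 3, 0 to 0 and 0 to 0. The causes were not tested. Depth limits Plin5, at 24 to 66 counts per library, and Plin4 in HFD, at 34 to 111.

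The labels state no pairing of samples by replicate number. Same-numbered libraries had correlations of deviations from group means between -0.196 and 0.0479, and 1 of 9 correlated best with its own number. With 3 libraries per group these values cannot show whether libraries of 1 number shared any handling. With the number as a replicate block, 23 genes passed in Trp against HFD and 0 in IPA against HFD, and the same count of 2 of the 10 genes in Trp against HFD.

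The log2 fold changes that changed sign were small and none passed. For Trp against HFD, Plin2 reached 0.0198 with limma on FPKM (0.023 and 0.0168 at pseudocounts of 0.1 and 1) and 0.0629 without both HFD 3 and Trp 3. Mgll reached 0.0048 with no filter and 0.0728, 0.0734 and 0.0721 with limma. G0s2 reached 0.0892, 0.1012 and 0.0776 with limma, 0.0076 with the block and 0.2346 without both libraries, where Dgat1 was -0.1191 and Dgat2 -0.1196. For IPA against HFD, G0s2 reached 0.0082, 0.0128 and 0.0042 with limma, 0.0015 with the block and 0.2368 without both libraries, where Angptl4 was 0.1657. Leaving out 1 library gave, for Trp against HFD, Mgll -0.1059 to 0.0582, Dgat1 -0.0649 to 0.1623, G0s2 -0.2305 to 0.2367, Hilpda -0.0182 to 0.2036 and Dgat2 -0.1329 to 0.1093. For IPA against HFD it gave Plin5 -0.0122 to 0.2286, Mgll -0.1258 to 0.0382, G0s2 -0.2308 to 0.2364, Hilpda -0.0983 to 0.1233 and Angptl4 -0.2893 to 0.1657. For Trp against IPA it gave Plin2 -0.0322 to 0.1065, Plin3 -0.2817 to 0.0377 and Mgll -0.0024 to 0.0327.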
